A study of Mus musculus with 15 samples.

Results

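Carbonic anhydrases are zinc enzymes that interconvert carbon dioxide and water with bicarbonate and a proton. Skeletal muscle uses them to move the carbon dioxide and acid of respiration and glycolysis out of the fiber, and isoforms sit in the cytosol, in mitochondria, on the sarcolemma and capillary surface and in the sarcoplasmic reticulum. The family also holds related proteins that lack catalytic activity, such as CAR8, a partner of the inositol trisphosphate receptor. The 6 genes described here are the cytosolic Car3 and Car2, the mitochondrial Car5b, the membrane-bound Car4 and Car14, and Car8. They were taken by symbol from the 12529 genes of the deposited expression table, and all 6 passed the filter on low values.

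Polyadenylated RNA of mouse quadriceps, a mostly glycolytic thigh muscle, was sequenced in 15 libraries from 3 groups of 5. Control mice were sedentary wild types, exercised (Ex) mice were wild types with free access to a running wheel for several weeks from young adulthood, and mTg mice were sedentary carriers of a Pgc1a transgene, labelled PGC1a Tg(+). All libraries are labelled with the strain C57BL/6, and the study used male mice. The sources used here do not say whether the control libraries came from wild-type littermates of the mTg mice or from purchased sedentary mice, so a difference of origin cannot be told apart from the effect compared. The Pgc1a transgene, which encodes the coactivator of mitochondrial biogenesis, is expressed constitutively from the muscle creatine kinase promoter. Ex muscle was taken within hours of the last running bout. Voluntary running sets no fixed dose, and the distances run by these mice were not analysed here. Where the labels do not tie libraries to separate animals, p-values measure the spread between libraries, part of which may be technical. The tissue was whole muscle, so fewer cells of a type and less RNA per cell cannot be told apart.

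The libraries held between 11476001 and 16917677 reads in the genes of the table, with the mTg libraries at 11476001 to 15381319. Values are FPKM, fragments scaled to gene length and to sequencing depth, so that levels of genes of different length can be set side by side. The muscle genes Acta1 and Ckm were at or above 15067 and 12292 FPKM in every library. Ppargc1a, the gene that the transgene encodes, was at 50.1 to 56.8 FPKM in mTg and 5.06 to 12.5 in controls. Ppargc1a in Ex was at 4.87 to 7.34 FPKM. Fold changes below are differences of log2(FPKM + 1) from limma, with standard errors (SE) and p-values adjusted by Benjamini-Hochberg over 11674 tested genes. The + 1 understates changes of genes at low levels.

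The catalytic site holds a zinc ion bound by histidines, of which the first pair lies in a short conserved stretch of the coding sequence. These 27-base stretches are shown for the 5 catalytic isoforms because they carry the feature that defines an active enzyme of the family, and capitals mark the codons of that first pair. They were read on the coding strand, 5′ to 3′, from the GENCODE M21 transcripts of GRCm38 (mm10), the build the authors used.
Car3: caattcCATcttCACtggggctcctct
Car2: cagtttCACtttCACtggggctcatct
Car5b: cagtttCATtttCATtggggagccatt
Car4: cagttgCACctgCACtggtcaaatggg
Car14: cagctcCACctgCACtggggtcagaga
The stretches were picked by these histidine codons, so in all 5 genes both capital codons are CAC or CAT, which encode histidine. The stretches lie at chr3:14866844-14866870 for Car3 and chr3:14895063-14895089 for Car2, both on the plus strand. That of Car5b is at chrX:163991402-163991428 on the minus strand. For Car4 the stretch is at chr11:84964161-84964187 on the plus strand and for Car14 at chr3:95900297-95900323 on the minus strand. Each lies within a single coding exon.

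Car3 and Car2 are neighbors. Car3 (chr3:14863512-14872523) ends 13749 bases before Car2 (chr3:14886273-14900770) starts, on the same strand, and the annotation lists no gene between them. The longest stretch of identical bases shared by the main transcripts of any pair of members ranged from 10 to 28 bases over the 15 pairs, the longest being between Car5b and Car8. Car14 overlaps 521 bases of Aph1a on the opposite strand. Aph1a, a gamma-secretase subunit gene, had a mean of 7.59 FPKM. The kit marks strand, but the sources used here do not say whether the counting used it. Car8 contains a processed pseudogene, Gm11799, of 460 bases on its own strand, which was not analysed here.

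Car3 was the dominant carbonic anhydrase transcript of control quadriceps and lost most of its level in mTg. CAR3 is a cytosolic isoform with low hydratase activity, and in rodents it is most abundant in slow-twitch muscle, liver and fat. Car3 was at 938, 1033, 1095, 1097 and 725 FPKM in control replicates 1 to 5, a mean of 978 ± 155 (SD, n = 5) that ranked 36 among all genes. In mTg Car3 was at 144, 324, 164, 168 and 163 FPKM, a mean of 192 ± 74.0 (SD, n = 5) and rank 282. No mTg library came near the lowest control library, and the mean was 5.08-fold lower. The log2 fold change of Car3 was -2.39 ± 0.19 (SE, limma adjusted p = 4.21e-07).

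The single high mTg value of Car3 was replicate 2. Without it, the other 4 mTg libraries had a mean Car3 of 160 ± 10.8 FPKM (SD), and the log2 fold change was -2.59 (limma adjusted p = 2.01e-08). The same mTg library had the lowest summed level of 9 slow fiber genes, 186 FPKM against 434 to 733 in the other mTg libraries. Its Myh7, the slow myosin heavy chain, was at 5.86 FPKM against 20.3 to 54.2.

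In Ex, Car3 was at 928, 588, 538, 507 and 808 FPKM, a mean of 674 ± 184 (SD, n = 5). Replicates 2, 3 and 4 lay below every control library, whereas replicates 1 and 5 lay within the control range. The log2 fold change of -0.56 ± 0.17 (SE) had an unadjusted p of 0.00609 but missed the threshold after adjustment (limma adjusted p = 0.0543). The outcome turned on single libraries. The adjusted p was 0.0205 without Ex replicate 1, with a log2 fold change of -0.69. It was 0.0371 without Ex replicate 5 (-0.64) and 0.0249 without control replicate 5 (-0.67), while voom on recovered reads gave 0.0484. With each library scaled to the same sum (TPM) it was 0.0996, and in a fit on all 15 libraries 0.106. The direct comparison of Ex with mTg gave a log2 difference in Car3 of 1.83 ± 0.21 (SE, limma adjusted p = 1.16e-05), higher in all 5 Ex libraries than in any mTg library.

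**Figure D1:**
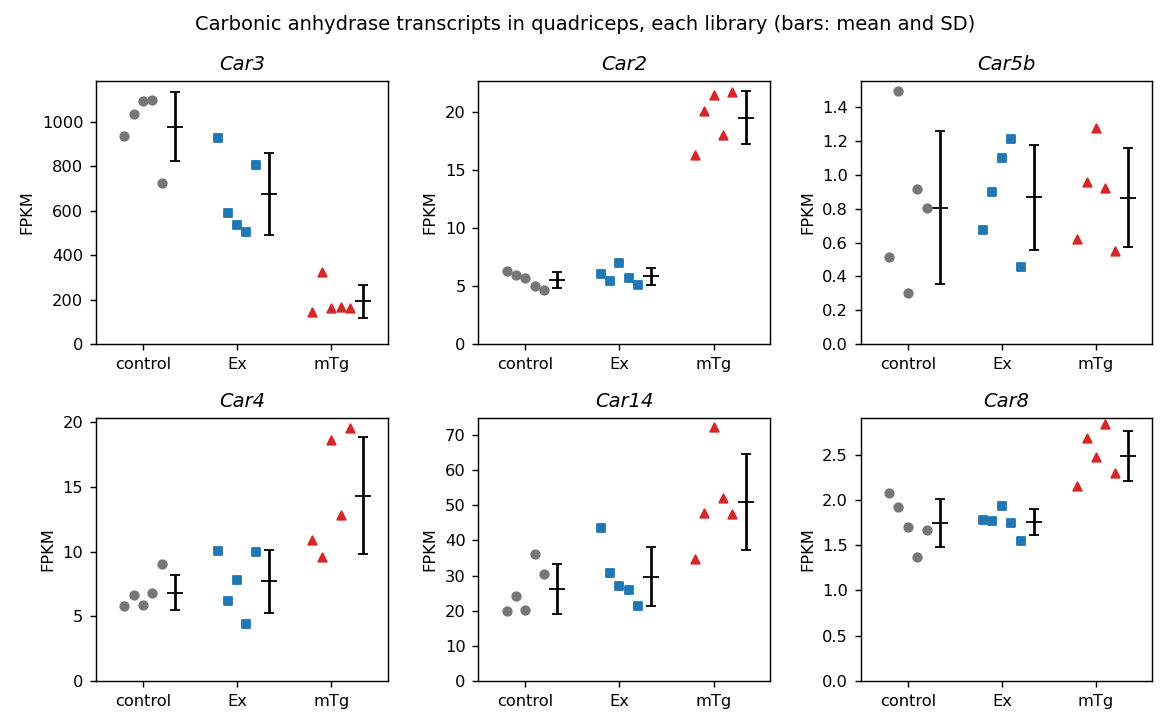
FPKM (y axis, from 0) of the 6 carbonic anhydrase genes in each of the 5 libraries of the control, Ex and mTg groups (x axis), with bars for mean and SD. Car3 falls from a mean of 978 in controls to 192 in mTg with Ex in between, Car2 goes from 5.54 to 19.5 in mTg and is at 5.85 in Ex, and Car5b spreads over the same range in the 3 groups.

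Slow and fast fiber genes were read beside Car3. The summed level of the 9 slow fiber genes was 297 to 725 FPKM among controls, 987 to 1423 among Ex and 186 to 733 among mTg libraries. Of the 9, 6 were called higher in Ex and 1, Casq2, in mTg. The other slow fiber genes had negative log2 fold changes in mTg that were not called, and the median of the 9 was -0.44. The summed level of 8 fast fiber genes was 75459 to 84984 FPKM among controls, 59839 to 70617 among Ex and 51317 to 63124 among mTg libraries, with 7 of 8 called lower in Ex and 8 of 8 in mTg. Over all tested genes, 5.39% were called higher and 5.02% lower in Ex, and 22.3% higher and 23.1% lower in mTg. Within mTg, replicate 1 had the highest slow fiber sum (733 FPKM) and the lowest Car3, and replicate 2 the reverse. Within Ex, replicate 1 had the lowest slow fiber sum (987 FPKM) and the highest Car3 (928 FPKM). Controls differed, since replicate 4 had both the highest slow fiber sum (725 FPKM) and the highest Car3 (1097 FPKM). Car3 per 100 FPKM of the fast fiber sum was 0.883 to 1.37 for controls, 0.803 to 1.52 for Ex and 0.228 to 0.612 for mTg, and the mTg range lay below both other groups on this scale. Per 100 FPKM of the slow fiber sum it was 131 to 348 for controls, 35.9 to 94.0 for Ex and 19.6 to 174 for mTg. On that scale Ex lay wholly below the controls. The mTg range overlapped that of Ex, and it overlapped that of the controls through replicate 2 alone. That library had Car3 at 324 FPKM and a slow fiber sum of 186 FPKM. The group means of the fast fiber sum, 81239, 65349 and 54546 FPKM for control, Ex and mTg, had the same order as those of Car3, and those of the slow fiber sum did not. Fat also makes Car3. Of 8 adipocyte genes, 2 (Fabp4 and Adig) were called higher in mTg and 1 (Lep) lower in Ex, and the defining Adipoq, Plin1 and Cfd were not called in either comparison with controls. The summed adipocyte level was 332 to 575 FPKM for controls, 426 to 537 for Ex and 540 to 832 for mTg. Most of that sum was Fabp4, with means of 323 FPKM in controls and 449 in mTg, and Adig went from 7.04 to 66.8. The means of Adipoq were 15.7 FPKM in controls and 11.3 in mTg. The means of Plin1, Cfd, Lep, Cidec and Retn were also lower in mTg than in controls, and none of these was called. The part of fiber makeup or fat in the Car3 values was not tested.

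**Figure D2:**
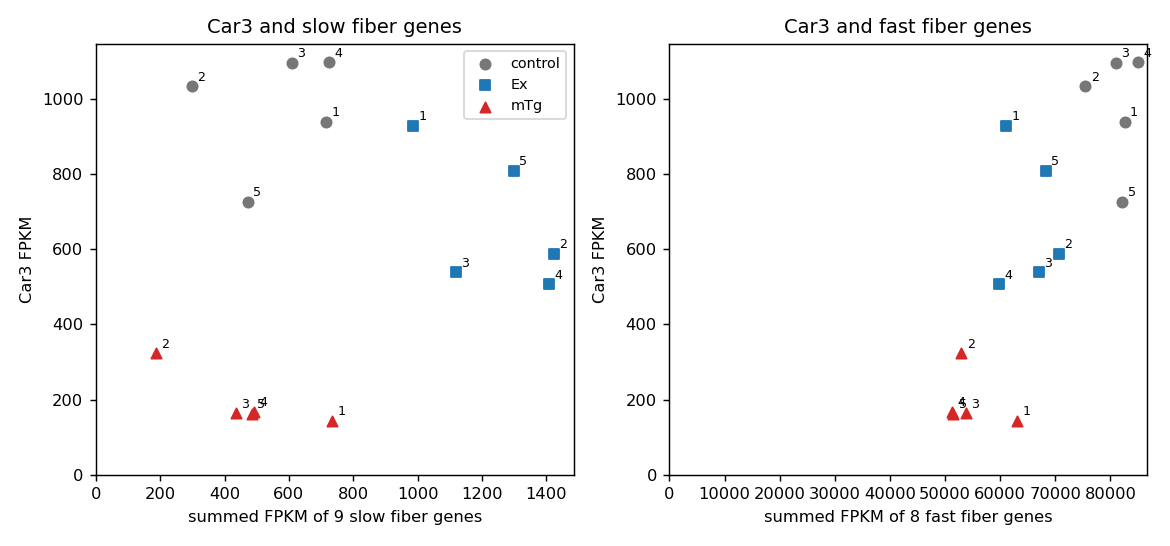
Car3 FPKM (y axis) against the summed FPKM of 9 slow fiber genes (left, x axis) and of 8 fast fiber genes (right, x axis), with each point a library numbered by replicate. Ex libraries have the highest slow fiber sums (987 to 1423) at Car3 levels of 507 to 928, and mTg replicate 2 combines the lowest slow fiber sum (186) with the highest mTg Car3 level (324).

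Car2 moved opposite to its neighbor in mTg. CAR2 is the fast cytosolic isoform, known from red blood cells, kidney and osteoclasts. Car2 was at 6.34, 5.96, 5.74, 4.98 and 4.66 FPKM in controls and at 16.3, 20.1, 21.5, 18.1 and 21.7 in mTg. The mTg libraries were tightly grouped and far above the controls, with means of 19.5 ± 2.30 and 5.54 ± 0.696 (SD, n = 5 each). The log2 fold change was 1.65 ± 0.09 (SE, limma adjusted p = 2.58e-08), and the ratio of mean FPKM was 3.53. Car2 in Ex, at 6.02, 5.41, 7.02, 5.67 and 5.12 FPKM, overlapped the controls, with a log2 fold change of 0.07 ± 0.09 (SE, limma adjusted p = 0.675). Ex over mTg the log2 difference was -1.58 ± 0.09 (SE, limma adjusted p = 2.67e-08).

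Red blood cells carry Car2, so erythroid genes were read beside it. Of a list of 7 erythroid genes, 1 was found in the table, and globin genes were not analysed here. That gene, Alas2, encoding the erythroid enzyme of heme synthesis, was at 0.978 to 1.92 FPKM in controls and 1.46 to 5.19 in mTg (log2 fold change 0.71 ± 0.20, SE, limma adjusted p = 0.0115). The part of blood in the Car2 values was not tested.

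The membrane-bound isoforms rose in mTg by similar amounts. CAR14 is a transmembrane isoform of the sarcolemma and sarcoplasmic reticulum in mouse muscle, and its transcript was the most abundant of the 6 after Car3. Car14 was at 19.9, 24.3, 20.3, 36.2 and 30.3 FPKM in controls and at 34.7, 47.7, 72.3, 52.1 and 47.7 in mTg. The groups touched, since mTg replicate 1 lay below control replicate 4. The mean rose from 26.2 ± 6.99 to 50.9 ± 13.6 FPKM (SD, n = 5 each), a log2 fold change of 0.93 ± 0.19 (SE, limma adjusted p = 0.00124). Ex libraries, at 43.5, 30.7, 27.0, 26.0 and 21.2 FPKM, overlapped the controls almost entirely, apart from replicate 1 (log2 fold change 0.17 ± 0.19, SE, limma adjusted p = 0.613). Ex was below mTg by a log2 difference of -0.76 ± 0.19 (SE, limma adjusted p = 0.00504).

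CAR4 is anchored by a lipid to the outer face of capillary endothelium and sarcolemma. Car4 was at 5.75, 6.63, 5.89, 6.80 and 9.07 FPKM in controls and at 10.9, 9.59, 18.6, 12.8 and 19.6 in mTg. All 5 mTg libraries exceeded all controls, with means of 14.3 ± 4.54 and 6.83 ± 1.33 (SD, n = 5 each), although the mTg values themselves ranged from 9.59 to 19.6. The log2 fold change was 0.93 ± 0.18 (SE, limma adjusted p = 8.46e-04). In Ex, Car4 was at 10.03, 6.21, 7.80, 4.41 and 9.999 FPKM and ranged to both sides of the controls (log2 fold change 0.12 ± 0.18, SE, limma adjusted p = 0.736). The log2 difference Ex over mTg was -0.82 ± 0.22 (SE, limma adjusted p = 0.00799).

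Endothelial genes rose with Car4 in mTg. Of 11 endothelial markers, 9 were called higher in mTg and 4 in Ex, against 22.3% and 5.39% of all tested genes. Their summed level was 160 to 202 FPKM for controls, 214 to 255 for Ex and 243 to 331 for mTg. Within mTg, replicates 1 and 2 had the lowest endothelial sums (251 and 243 FPKM) and the lowest Car4. Ex replicate 1 had the highest endothelial sum of its group (255 FPKM) and the highest Car4 (10.03 FPKM). Ex replicates 4 and 5, both with a sum of 217 FPKM, had Car4 at 4.41 and 9.999 FPKM. Controls differed, since replicate 1 had the highest endothelial sum (202 FPKM) and the lowest Car4 (5.75 FPKM). Car4 per 100 FPKM of the endothelial sum averaged 3.71 ± 0.719 for controls, 3.40 ± 1.004 for Ex and 4.80 ± 0.999 for mTg (SD, n = 5 each). On that scale the mTg range of 3.94 to 5.92 overlapped the control range of 2.84 to 4.63. The part of endothelial content in the rise of Car4 was not tested beyond these values.

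**Figure D3:**
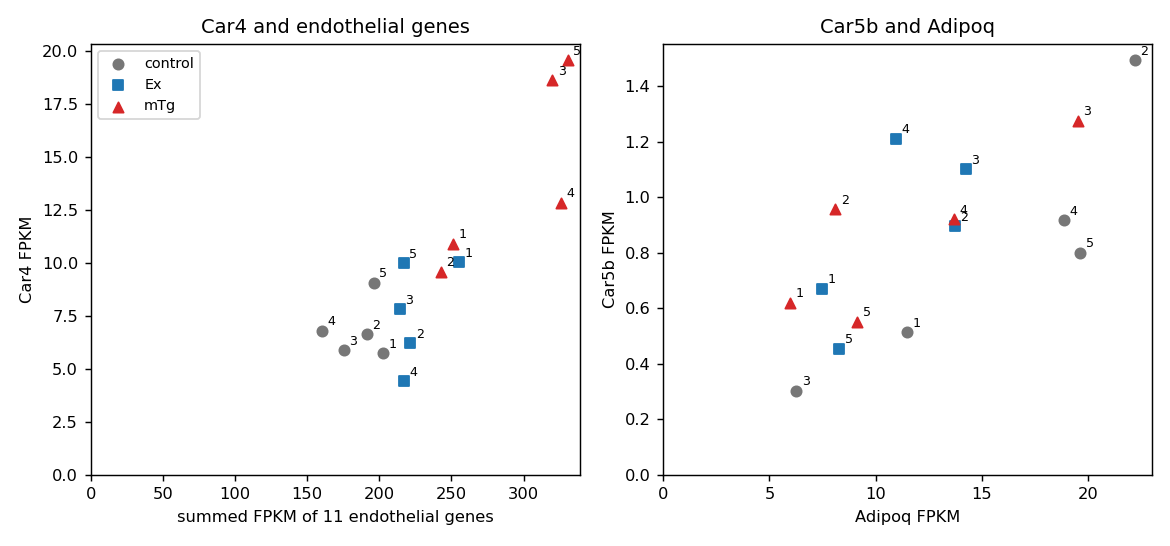
Left, Car4 FPKM (y axis) against the summed FPKM of 11 endothelial genes (x axis); right, Car5b FPKM (y axis) against Adipoq FPKM (x axis), with each point a library numbered by replicate. The mTg libraries with the highest endothelial sums (320 to 331) have Car4 levels of 18.6, 12.8 and 19.6. Control replicates 2 and 3 mark the highest and lowest Car5b of all libraries at Adipoq of 22.2 and 6.27.

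Car5b, the mitochondrial isoform that supplies bicarbonate to carboxylases, was not called in any comparison. Car5b was at 0.514, 1.49, 0.304, 0.917 and 0.801 FPKM in controls, at 0.671, 0.896, 1.101, 1.21 and 0.454 in Ex and at 0.621, 0.957, 1.28, 0.920 and 0.551 in mTg. Controls alone spanned the whole range of the 15 libraries. The log2 fold change was 0.07 ± 0.16 in both Ex (limma adjusted p = 0.839) and mTg (limma adjusted p = 0.749) (SE). At 16 to 83 reads per library a difference of 0.07 was not detectable. The libraries high in Car5b were often high in the adipocyte gene Adipoq, which was at 11.5, 22.2, 6.27, 18.9 and 19.6 FPKM in controls, 7.46, 13.7, 14.2, 10.95 and 8.29 in Ex and 5.97, 8.09, 19.5, 13.7 and 9.12 in mTg. Car5b and Adipoq had their highest value in the same control library and in the same mTg library, and their lowest in the same control library. Their lowest mTg values, and both their highest and lowest Ex values, were in different libraries. The part of fat in the spread of Car5b was not tested.

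Car8 encodes the acatalytic member of the 6. Car8 was at 2.07, 1.92, 1.70, 1.36 and 1.66 FPKM in controls and at 2.15, 2.68, 2.47, 2.83 and 2.30 in mTg. Every mTg library was above every control, the closest pair being 2.15 and 2.07. The means were 1.74 ± 0.269 and 2.49 ± 0.277 (SD, n = 5 each), with a log2 fold change of 0.35 ± 0.08 (SE, limma adjusted p = 0.00452). Ex libraries, at 1.78, 1.77, 1.94, 1.74 and 1.54 FPKM, lay within the controls (log2 fold change 0.01 ± 0.07, SE, limma adjusted p = 0.959). Car8 was lower in Ex than in mTg by -0.34 ± 0.07 on the log2 scale (SE, limma adjusted p = 0.00216), without overlap.

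CAR8 binds the inositol trisphosphate receptor ITPR1, a calcium release channel, and lowers its affinity for its ligand. Itpr1 fell in mTg from 5.34 ± 0.657 to 2.52 ± 0.240 FPKM (SD, n = 5 each; log2 fold change -0.84 ± 0.08, SE, limma adjusted p = 3.05e-06). Itpr2 rose from 1.01 ± 0.0888 to 1.51 ± 0.219 FPKM (log2 fold change 0.32 ± 0.07, SE, limma adjusted p = 0.00334), and Itpr3 was not called. None of the 3 receptor genes was called in Ex by limma. Of 7 macrophage genes, 3 were called higher in mTg and 0 in Ex, with summed levels of 66.2 to 95.1 FPKM for controls, 66.8 to 120 for Ex and 83.6 to 136 for mTg. Of 6 Schwann cell genes, 5 were called lower in mTg. Over all tested genes, 22.3% were called higher and 23.1% lower in mTg, and 5.39% higher in Ex. The part of these cell types in the Car8 values was not tested.

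Of the 6 genes, 4 rose and 1 fell in mTg over controls, where 22.3% of all tested genes were called higher and 23.1% lower. In Ex over controls none was called at adjusted p under 0.05 by limma, 1 (Car3) had an unadjusted p under 0.05, and voom called 1, again Car3. The background in that comparison was 5.39% called higher and 5.02% lower. In Ex over mTg, 1 was higher and 4 were lower, where 20.7% of all genes were called higher and 20.7% lower. This comparison is also the test of whether both effects differ, and it called the 5 genes that the mTg comparison called. The median log2 fold change of the 6 genes was 0.07 in Ex, 0.64 in mTg and -0.55 for Ex over mTg, against -0.01, -0.02 and 0.02 over all tested genes. The 4 other carbonic anhydrase genes tested had medians of 0.06, -0.13 and 0.23 in the same comparisons. The groups did not overlap for 4 of the 6 genes in mTg over controls and for 3 in Ex over mTg. The share of all tested genes without overlap was not counted, so these counts cannot be set against a background. With libraries scaled to the same sum, the calls over all genes shifted from 629 higher and 586 lower to 1225 and 208 in Ex, and from 2414 and 2413 to 3038 and 1898 for Ex over mTg. The calls of the 6 genes, and the directions of those called, were the same under that scaling.

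**Figure D4:**
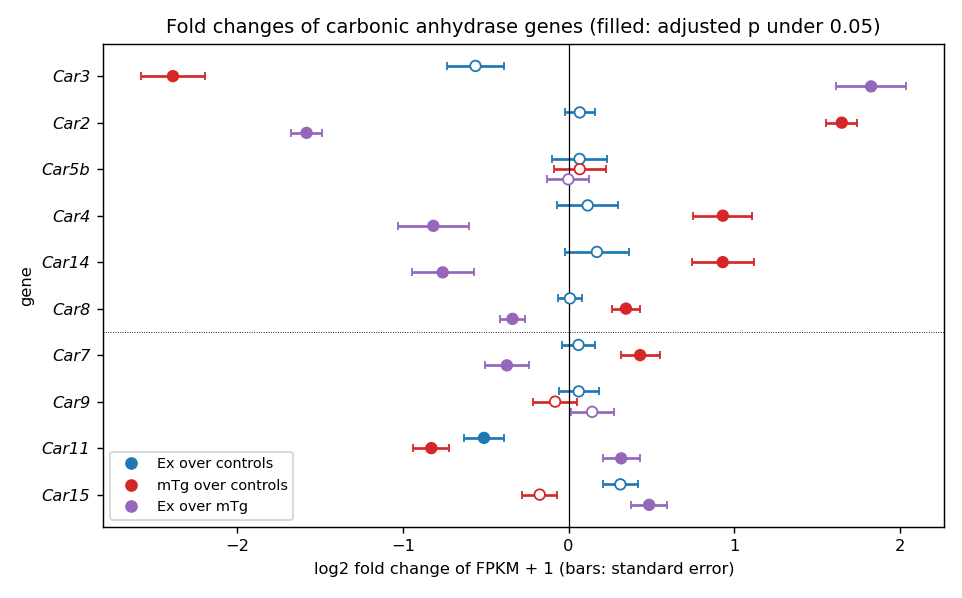
Log2 fold changes of FPKM + 1 (x axis) with standard errors for the 6 carbonic anhydrase genes and 4 further family members below the dotted line (y axis), in Ex over controls, mTg over controls and Ex over mTg; filled points have an adjusted p under 0.05. In mTg, Car3 (-2.39) and Car11 (-0.83) lie to the left and Car2 (1.65), Car4 and Car14 (both 0.93) to the right, while in Ex only Car11 (-0.51) is filled.

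The makeup of the carbonic anhydrase transcripts changed with these levels. Car3 made up 95.9% ± 1.16 of the summed FPKM of the 6 genes in controls, 93.4% ± 1.24 in exercised and 67.5% ± 7.95 in transgenic muscle (SD, n = 5 each). The share of Car14 was 2.64% ± 0.886 for controls, 4.23% ± 0.977 for Ex and 18.7% ± 5.13 for mTg. Car2 went from 0.551% ± 0.0844 to 7.21% ± 1.36 between controls and mTg, and Car4 from 0.700% ± 0.268 to 5.40% ± 2.01. The sum of the 6 genes came to 1019 ± 154 FPKM for controls, 719 ± 191 for Ex and 281 ± 74.1 for mTg. Without Car3 the sum instead was 41.1 ± 7.22 for controls, 45.8 ± 9.58 for Ex and 88.1 ± 18.7 for mTg. For each FPKM of the fast Car2 there were 178 ± 29.1 of Car3 for controls, 117 ± 37.1 for Ex and 9.87 ± 3.58 for mTg. These shares describe the same values as the tests above and carry no test of their own.

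**Figure D5:**
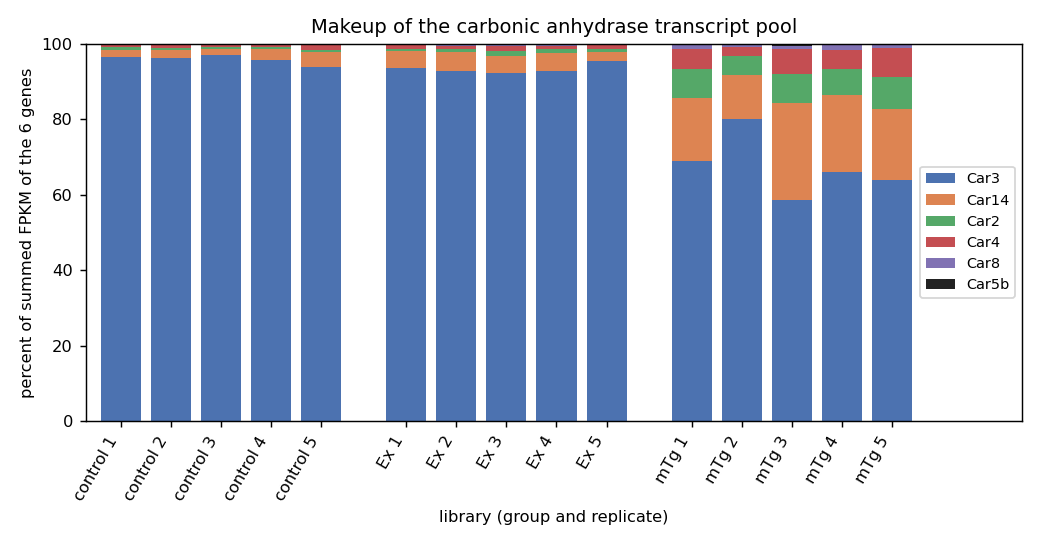
Share of each gene in the summed FPKM of the 6 carbonic anhydrase genes (y axis, percent) in each library (x axis). Car3 fills 92.3% to 97.0% of every control and Ex bar, and 58.6% to 80.0% of the mTg bars, where Car14, Car2 and Car4 take up the difference.

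Of 10 other family genes, 5 are in the table and 4 of these were tested. Car11, an acatalytic relative, was the only carbonic anhydrase gene called in Ex by limma on FPKM, while Car3 was called by voom on reads. Car11 was at 5.99, 4.91, 6.41, 4.93 and 7.25 FPKM in controls, at 4.23, 3.80, 3.72, 2.74 and 4.76 in Ex and at 3.35, 3.26, 2.91, 2.49 and 2.35 in mTg. Both groups lay below every control library. The log2 fold change of Car11 was -0.51 ± 0.12 in Ex (SE, limma adjusted p = 0.0205) and -0.83 ± 0.11 in mTg (SE, limma adjusted p = 3.78e-05), and the difference between them was 0.32 ± 0.11 (SE, limma adjusted p = 0.0366). Car7, a cytosolic isoform of brain and muscle, rose in mTg from 1.04 ± 0.155 to 1.79 ± 0.520 FPKM (SD, n = 5 each; log2 fold change 0.43 ± 0.12, SE, limma adjusted p = 0.00869). Car15, a membrane-anchored isoform lost in humans, was at 1.24 ± 0.304 FPKM in Ex and 0.597 ± 0.209 in mTg (log2 difference 0.49 ± 0.11, SE, limma adjusted p = 0.00243), on 5 to 32 reads per library. The Car15 locus shares 3088 bases with Gm20518, a protein-coding gene on the same strand. How reads in that overlap were assigned is not stated in the sources used here. Car9, the hypoxia-induced transmembrane isoform, was not called in any comparison. Car13 was below the filter, at a mean of 0.436 FPKM.

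Genes of bicarbonate, proton and lactate transport were read as fixed lists. Of 12 tested genes listed under bicarbonate and proton transport, 1 rose and 1 fell in Ex, and 1 rose and 2 fell in mTg. The 12 include the exchanger regulators Slc9a3r1 and Slc9a3r2 and the sulfate transporter Slc26a2, which were not called in either comparison. Over all tested genes, the shares called were 5.39% higher and 5.02% lower in Ex and 22.3% higher and 23.1% lower in mTg, so the counts in mTg were below the background shares. Slc26a6, an anion exchanger that carries bicarbonate, fell in both, from 5.26 ± 0.436 FPKM in controls to 3.80 ± 0.382 with exercise and 2.497 ± 0.299 with the transgene (SD, n = 5 each). Its log2 fold changes were -0.39 ± 0.07 (SE, limma adjusted p = 0.00523) and -0.84 ± 0.08 (SE, limma adjusted p = 1.44e-06). Slc9a2, a sodium-proton exchanger, rose in Ex from 14.0 ± 1.16 to 17.7 ± 1.90 FPKM (log2 fold change 0.32 ± 0.08, SE, limma adjusted p = 0.0236). In mTg, the bicarbonate cotransporter Slc4a7 rose (log2 fold change 0.32) and the exchanger Slc9a5 fell (-0.35).

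Among 6 tested genes listed under lactate transport and carbon dioxide channels, none rose and 1 fell in Ex, and 2 rose and 1 fell in mTg, against the same background shares. The 6 include Bsg and Emb, partners of the lactate transporters, which were not called in either comparison. Slc16a1, encoding the lactate importer MCT1, had a mean of 9.06 ± 2.20 FPKM in the control, 9.17 ± 0.556 in the Ex and 26.4 ± 2.22 in the mTg group (SD, n = 5 each), with a log2 fold change in mTg of 1.47 ± 0.12 (SE, limma adjusted p = 4.75e-07). Slc16a3, encoding the lactate exporter MCT4 of glycolytic fibers, fell in both groups, from a control mean of 134 ± 27.1 FPKM to 87.8 ± 10.6 (Ex) and 63.9 ± 13.7 (mTg). The log2 fold changes of Slc16a3 were -0.59 ± 0.12 (SE, limma adjusted p = 0.0110) and -1.06 ± 0.15 (SE, limma adjusted p = 6.22e-05). Aqp1, a water channel of capillary endothelium that also passes carbon dioxide, rose in mTg from 184 ± 40.5 to 298 ± 23.1 FPKM (log2 fold change 0.72 ± 0.12, SE, limma adjusted p = 4.24e-04), beside the endothelial genes described above.

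Carboxylases fix bicarbonate made by mitochondrial and cytosolic carbonic anhydrases. Of 9 tested genes in a fixed list of carboxylases, which also holds Cad and the biotin ligase gene Hlcs, 4 rose and 3 fell in mTg. In Ex none rose and 1, Pccb, fell (log2 fold change -0.17 ± 0.05, SE, limma adjusted p = 0.0417). The background shares in mTg were 22.3% higher and 23.1% lower, and in Ex 5.39% and 5.02%. Pcx, pyruvate carboxylase, fell in mTg from 38.3 ± 8.75 to 17.9 ± 3.68 FPKM (SD, n = 5 each; log2 fold change -1.05 ± 0.15, SE, limma adjusted p = 9.10e-05). Hlcs, which attaches biotin to carboxylases, and Cad, of pyrimidine synthesis, also fell (log2 fold changes -0.55 and -0.25). The subunits of the branched-chain enzyme methylcrotonyl-CoA carboxylase rose in mTg, Mccc1 by a log2 fold change of 0.66 and Mccc2 by 0.56. Pccb, a subunit of propionyl-CoA carboxylase, rose from 48.3 ± 1.85 to 63.0 ± 3.74 FPKM (log2 fold change 0.37 ± 0.06, SE, limma adjusted p = 2.05e-04), and Acacb, the acetyl-CoA carboxylase of the mitochondrial surface, by a log2 fold change of 0.23.

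The genes whose log2(FPKM + 1) followed each member most closely over the 15 libraries are given as a description, since the mTg group stands apart for most members and sets much of the correlation. For Car2 they were Epdr1 (Pearson r = 0.989), Gfm1 (0.985), a mitochondrial translation factor, and Cs (0.983), citrate synthase. For Car3 they were Ate1 (0.980), Lgalsl (0.979) and Mstn (0.978), the muscle growth inhibitor myostatin. The mean of Mstn was 29.4 FPKM for controls, 20.8 for Ex and 8.13 for mTg. Car4 was closest to Mrps36 (0.932), Syt7 (0.924) and Bmp6 (0.905), and Car14 to Klhl18 (0.905), Pnpla3 (0.890) and Rpusd4 (0.885). For Car8 they were Cd38 (0.926), an enzyme that makes a calcium-releasing second messenger, Clec7a (0.920) and Kctd12b (0.913). Car5b, which was not called in any comparison, was closest to Mrap (0.868), Trf (0.858) and Cebpa (0.825), of which Cebpa encodes a transcription factor of adipocytes and liver. Between members, Car2 and Car3 had r = -0.910, and Car2 and Car8 0.885.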

How the data were processed

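STAR, the mm10 build and DESeq2 (1.1.0) were used by the authors, per the submitters' processing notes. The annotation and read counting are not stated in the sources read. Values were the FPKM deposited by the authors. The mTg columns came from a separate normalization with the controls, whose values differ from those used here by 1 constant per library (0.991 to 1.01). The deposited tables of changed genes also hold fold changes and p-values, which were not used, and mean normalized read counts. With those counts the scale of each library was found, and 100% of values in these tables were whole reads (tolerance 0.001). For all 12529 genes, reads were recovered with the smallest gene length that made every value whole (tolerance 0.01). Their wholeness was thus set by the search. Both routes gave equal reads for all 1547 genes compared, from the Ex table.

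The 11674 genes averaging 0.5 FPKM or more over all 15 libraries were tested on log2(FPKM + 1) with limma 3.58.1 (linear model, eBayes with trend; R 4.3.3), each comparison on its 10 libraries, two-sided, at an adjusted p of 0.05; the script was tested on simulated data. Groups and replicate numbers came from the labels. The genes named are the 6 members, every other carbonic anhydrase listed in the table, genes of fixed lists called in a comparison (at most the 6 of smallest p), markers, and the 3 genes nearest each member by Pearson correlation. Members, lists and tests were chosen with earlier results of these data known. Sequences and loci came from GENCODE M21. RefSeq promoters (GRCm38.p6, 250 bases before to 50 after the start) were matched for 3 of the 6 genes, Car4, Car5b and Car14. Searched on both strands, neither TNAAGGTCA (the estrogen-related receptor element) nor a MEF2 site (CTA and TAG with any 4 bases between) was in these windows, against 1.28% and 3.69% of all 32851 promoters. The planned comparison of protein sequences from RefSeq was not made, and translated transcripts were aligned to CAR2 only to locate the zinc site. The coding stretch of the remaining member is not reported here. Alternatives were the pseudocount, the filter, TPM and median-of-ratios scaling, a joint fit, voom on reads, a replicate block and each library left out.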

Additional observations from a re-analysis of the deposited data

Results flagged for a closer look

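Of 18 groups of 5 values (6 genes in 3 groups), 1 held a value that stood apart by Dixon's test, where chance gives about 1 in 20. It was Car3 in mTg replicate 2, at 324 FPKM against 144 to 168 in the other 4 mTg libraries. The same library had the lowest summed slow fiber genes of all 15 libraries (186 FPKM) and the highest Alas2 (5.19 FPKM), and its Ppargc1a, at 56.8 FPKM, was the highest in a group that ranged from 50.1. Without this library the mean Car3 in mTg was 160 FPKM and the means of the other 5 genes were 19.4 for Car2, 51.7 for Car14, 15.5 for Car4, 2.44 for Car8 and 0.842 for Car5b. What set this library apart was not tested.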

How the results depend on the processing

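Over 18 results for the 6 genes and 312 alternative values, 308 kept their side of the threshold and, where called, their direction, and 0 reversed a call. The exceptions were all Car3 in Ex over controls, where voom gave a log2 fold change of -0.56 (adjusted p = 0.0484) and leaving out libraries gave -0.69 to -0.47 (adjusted p = 0.0205 to 0.126), past the threshold without Ex replicate 1, Ex replicate 5 or control replicate 5. The number of genes called in Ex over controls ranged from 755 to 1442 with libraries left out, moving by over 1.5 times without Ex replicate 3 (767), control replicate 3 (765) or control replicate 4 (755). It ranged from 4697 to 5358 in mTg over controls and from 4254 to 4911 in Ex over mTg. Same-numbered libraries of different groups correlated between -0.216 and 0.189 in their deviations from group means, so numbers were not taken as pairs. With the replicate number as a replicate block, 1039, 5076 and 4414 genes were called in Ex over controls, mTg over controls and Ex over mTg, against 1215, 5302 and 4827, and Car3 in Ex had an adjusted p of 0.102. Controls on the scale of the mTg normalization, an alternative chosen after seeing the data, called 5302 genes in mTg over controls. Depth limits Car5b, Car9, Car13 and Car15, with as few as 5 to 16 reads in a library.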
